A study of Rattus norvegicus with 6 samples.

Results

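Levels of 3 microRNAs, namely miR-218, miR-331-3p and also miR-361, were examined in left ventricle of OLETF rats, an inbred strain with obesity and type 2 diabetes, and of LETO rats, its non-diabetic control strain. The 3 assays stand among 584 miRNA assays of a TaqMan rodent card set read by RT-qPCR, and all 3 were measured in each of the 6 samples (3 OLETF, 3 LETO). They were chosen by their measured values, as assays that lay higher in every OLETF sample than in every LETO sample relative to the whole-array and the card median. Their differences between the strains are therefore given as descriptions, with no test. Hearts were taken under anesthesia and ventilation, with no drug or diet named in the labels, which give neither age nor sex. Diabetes came only with the OLETF strain, so strain, obesity and diabetes cannot be told apart. The labels do not say whether the rats of a group shared a litter or a working day, so the spread between samples may be partly technical.

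A miRNA is cut from a hairpin precursor. The arm that is loaded into an Argonaute protein pairs with mRNAs mainly through its seed, bases 2 to 8, and lowers their translation and stability. miR-218 is made from 2 hairpins that lie within the genes of the axon and vessel guidance proteins Slit2 and Slit3; it is known for targeting the Slit receptor Robo1, for its part in vessel patterning and for its abundance in motor neurons. miR-331-3p is best known from cancer cells, where it targets the receptor tyrosine kinase ERBB2. miR-361-5p is known for targeting the angiogenic factor VEGFA.

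The mature sequences, shown here with the seed in capitals because it sets which mRNAs a miRNA can pair with, were taken from RefSeq (build GRCr8, rat) by name, which matched all 3. The assays carry mouse names, and those of miR-218 and miR-361 name no arm; they were read as the 5′ arm, as the older nomenclature has it.
miR-218 (rno-miR-218a-5p): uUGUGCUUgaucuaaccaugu
miR-331-3p (rno-miR-331-3p): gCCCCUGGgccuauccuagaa
miR-361 (rno-miR-361-5p): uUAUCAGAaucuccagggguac
The 3 seeds differ from each other, and none of the 693 mature names in the RefSeq table other than the 3 themselves carries one of them. The sequences also differ in base composition, with 8 of 21 bases G or C in miR-218, 13 of 21 in miR-331-3p and 10 of 22 in miR-361.

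The hairpins are shown with both arms in capitals, since the other arms of miR-331 and miR-218 were measured by assays of their own.
Mir218-1: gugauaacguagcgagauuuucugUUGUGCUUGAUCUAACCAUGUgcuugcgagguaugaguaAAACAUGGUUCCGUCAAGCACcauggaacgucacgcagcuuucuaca
Mir218-2: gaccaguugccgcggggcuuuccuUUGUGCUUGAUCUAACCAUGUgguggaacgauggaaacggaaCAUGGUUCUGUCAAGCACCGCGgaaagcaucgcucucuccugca
Mir331: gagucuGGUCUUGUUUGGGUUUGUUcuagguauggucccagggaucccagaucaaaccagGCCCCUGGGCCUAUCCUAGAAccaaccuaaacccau
Mir361: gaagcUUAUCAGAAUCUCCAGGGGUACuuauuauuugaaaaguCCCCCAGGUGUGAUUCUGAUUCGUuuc
In GRCr8, Mir218-1 lies at chr14:66922348-66922457 on the minus strand within Slit2, and Mir218-2 at chr10:20572523-20572632 on the plus strand within Slit3. Mir331 lies at chr7:30414386-30414481 on the minus strand within Vezt, the gene of the cell junction protein vezatin, and Mir361 at chrX:82438463-82438532 on the minus strand within Chm, the gene of a Rab escort protein. Slit3, Vezt and Chm are on the same strand as their miRNA; the strand of Slit2 is not known from the tables used here. The 5′ arm of miR-218 is identical in both of its hairpins, so its assay does not separate the 2 loci.

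Each well gave a threshold cycle (Ct), the PCR cycle at which its signal crossed a threshold. The more RNA a well held, the lower its Ct, and with a doubling in each cycle a step of 1 cycle equals 1 log2 unit. A Ct of 35 or more was treated as not measured. The 3 assays were single wells of card A, so the error of a repeated well is not known for them. Over 189 pairs of repeated wells on card B single wells had an SD of 0.486 cycles, which makes 0.688 for the difference of 2 single wells. On card A the 4 wells of the control U6 snRNA had an SD of 0.184 to 0.310 cycles within a sample, at a much lower Ct than the 3 miRNAs. Samples differed as a whole: the median Ct of the 122 card A assays measured in all samples was 26.5 in LETO replicate 3 against 30.0 and 29.5 in the other LETO samples and 28.0 to 29.0 in OLETF, while the endogenous control U6 snRNA stood at 17.5 to 19.2 in LETO and 17.6 to 18.2 in OLETF. The number of assays measured was 292 in LETO replicate 3 and 197 to 228 in the other 5 samples. Muscle miRNAs marked the tissue, with 8 of 9 assays of the muscle list measured in all samples, among them miR-133a, miR-208 and miR-499. As the tissue is bulk, fewer cells of a type and less RNA per cell cannot be told apart.

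Before any reference was applied, the OLETF samples lay inside the range of the LETO samples for all 3 miRNAs. For miR-218, LETO replicates 1, 2 and 3 had a Ct of 30.0, 28.7 and 26.0, and OLETF replicates 1, 2 and 3 one of 27.7, 28.2 and 26.4. miR-331-3p had a Ct of 28.5, 27.8 and 25.4 in LETO and 26.9, 27.1 and 26.1 in OLETF. For miR-361 it was 34.9, 33.3 and 30.2 in LETO and 32.3, 32.4 and 31.3 in OLETF. In each case LETO replicate 3 had the lowest Ct and LETO replicate 1 the highest, and the miR-361 well of LETO replicate 1 lay just under the limit of 35.

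**Figure D1:**
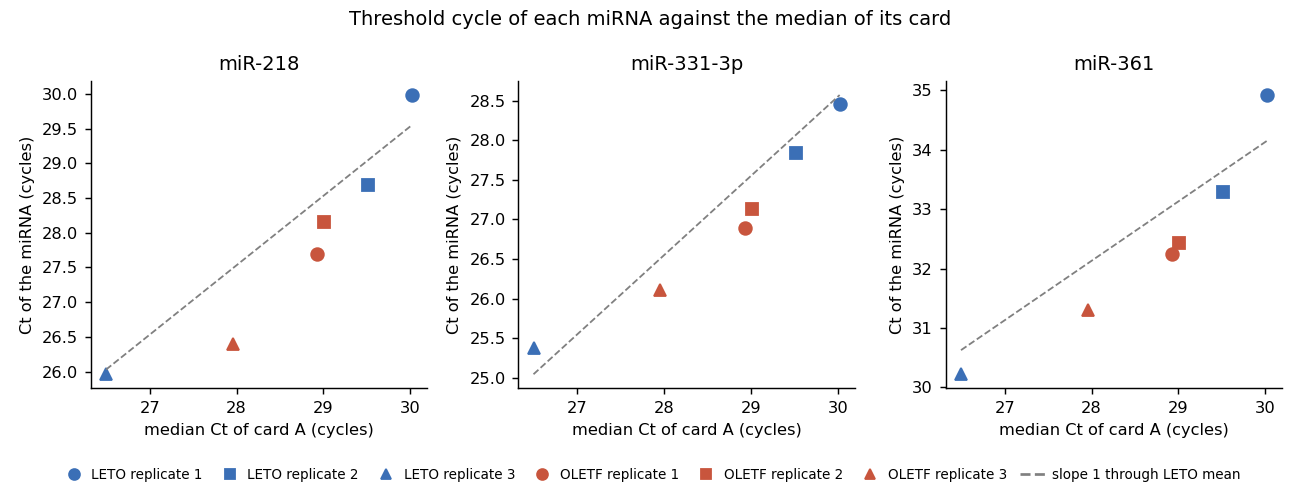
Threshold cycle of each miRNA (y axis, cycles) against the median Ct of the 122 card A assays measured in all samples (x axis, cycles), one point per sample, with LETO in blue and OLETF in red; the dashed line has slope 1 and passes through the LETO mean. The miRNAs follow the whole sample, from LETO replicate 3 at a median of 26.5 to LETO replicate 1 at 30.0, and the OLETF points lie below the line, that is at a lower Ct for their card.

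miR-218 lay higher in OLETF once the card median was subtracted, by a margin that 1 pair of samples made narrow. Relative to the median of card A, LETO replicates 1, 2 and 3 stood at 0.04, 0.83 and 0.53 log2 units and the OLETF replicates at 1.24, 0.85 and 1.57. The groups did not overlap, but OLETF replicate 2 and LETO replicate 2 lay 0.02 apart, less than the SD of a repeated well. The means were 0.47 ± 0.40 (LETO) and 1.22 ± 0.36 (OLETF; SD, n = 3 each), a difference of 0.75 or 1.68-fold. Relative to the whole-array median the difference was 1.03 with a gap of 0.09.

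miR-331-3p showed the smallest of the 3 differences. Relative to the card median it stood at 1.56, 1.68 and 1.12 log2 units in LETO and at 2.04, 1.87 and 1.85 in OLETF. Every OLETF sample was above every LETO sample, with a gap of 0.17, also within the error of repeated wells on card B. The means were 1.45 ± 0.30 and 1.92 ± 0.11 (SD, n = 3 each), a difference of 0.47 or 1.38-fold, and 0.75 with the whole-array median.

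miR-361 had the largest gap of the 3 and a spread that lay almost wholly in LETO. Its level relative to the card median was -4.90, -3.77 and -3.72 log2 units in LETO, and -3.32, -3.43 and -3.35 in OLETF. LETO replicate 1 lay far below the other 5 samples, and the gap between the groups was 0.30, within the error of repeated wells on card B as well. The means were -4.13 ± 0.67 and -3.37 ± 0.05 (SD, n = 3 each), a difference of 0.76 or 1.70-fold. With the whole-array median the difference was 1.05 and the gap 0.41.

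**Figure D2:**
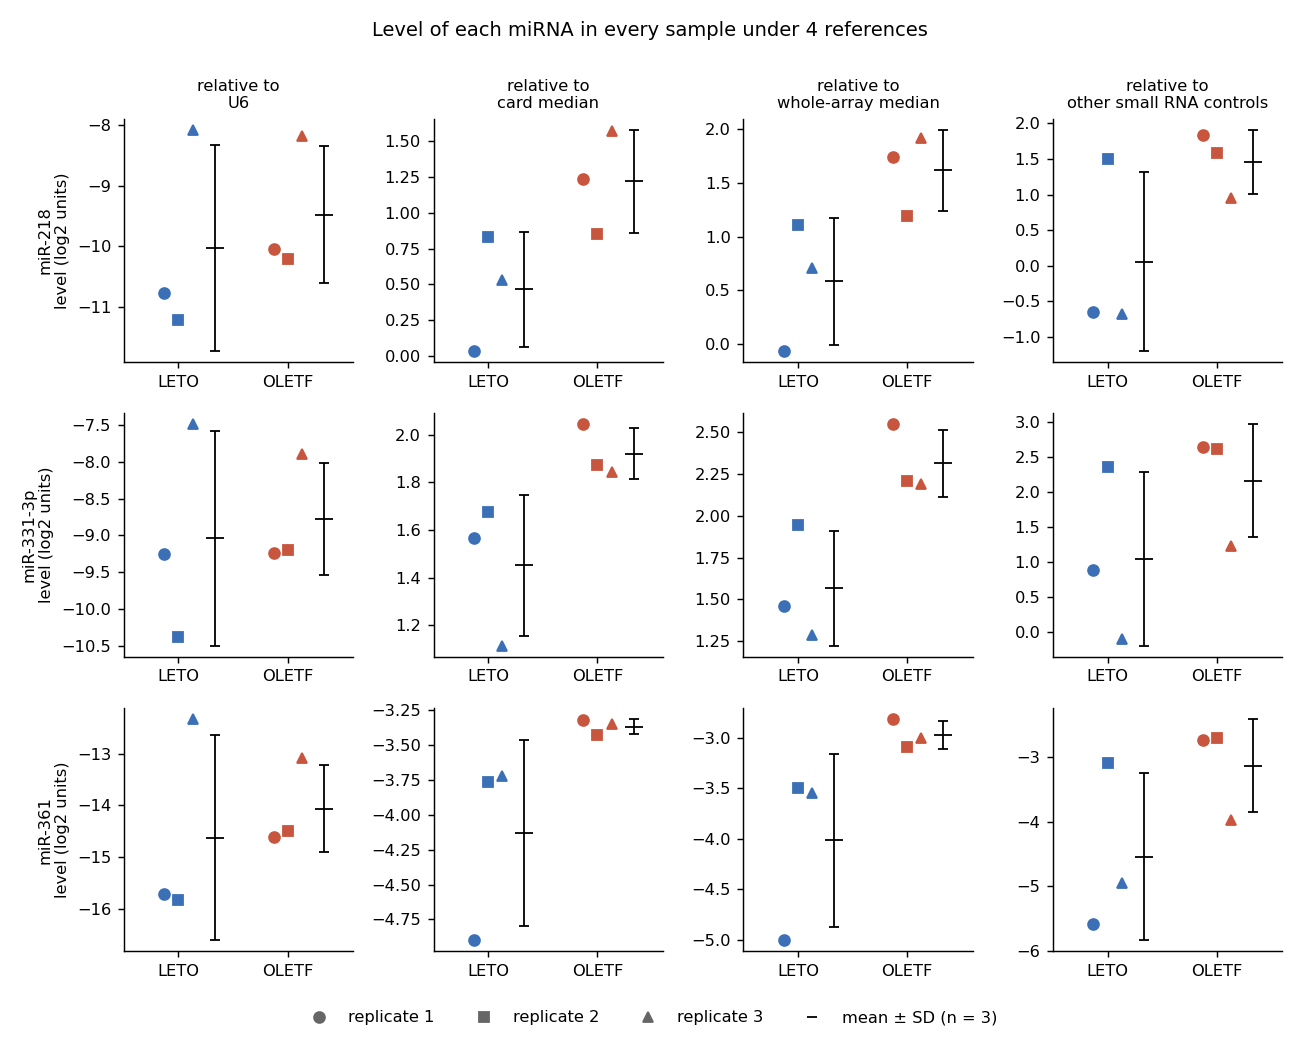
Level of the 3 miRNAs (rows; y axis, log2 units) in each LETO (blue) and OLETF (red) sample relative to U6, to the card median, to the whole-array median and to the other small RNA controls (columns); marker shapes give the replicate number and black bars the mean ± SD (n = 3). The groups are apart under the 2 median references and overlap under U6 and under the other controls. Under U6 LETO replicate 3 lies above every OLETF sample, and under the other controls LETO replicate 2 lies inside the OLETF range.

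With U6, the endogenous control the labels name, the groups overlapped for all 3 miRNAs. Relative to U6, miR-218 lay at -10.78, -11.23 and -8.07 log2 units in LETO and at -10.05, -10.22 and -8.17 in OLETF, a difference of 0.55. miR-331-3p lay at -9.25, -10.38 and -7.49 in LETO and at -9.24, -9.20 and -7.89 in OLETF, a difference of 0.27. miR-361 lay at -15.72, -15.82 and -12.33 in LETO and at -14.61, -14.50 and -13.09 in OLETF, a difference of 0.56. Each of the 3 was higher in 6 of 9 pairs of an OLETF and a LETO sample. LETO replicate 3 was above every OLETF sample for all 3, and it accounted for the 3 pairs that were not higher. The spread within the groups was larger than these differences. Relative to U6, the SD of miR-218 was 1.71 in LETO and 1.14 in OLETF, that of miR-331-3p 1.46 and 0.77, and that of miR-361 1.99 and 0.85. The authors' deposited table of ratios, computed from the same Ct values, lists 1.46 for miR-218, 1.20 for miR-331-3p and 1.47 for miR-361. With snoRNA135, U87 and Y1 as the reference the differences were 1.40, 1.12 and 1.41, and 8 of 9 pairs were higher, with LETO replicate 2 above OLETF replicate 3 for each of the 3. With 1 sample left out these differences ran from 1.03 to 2.13 for miR-218, from 0.54 to 1.77 for miR-331-3p and from 0.89 to 2.14 for miR-361. The groups were apart in 2 of 6 cases, without LETO replicate 2 and without OLETF replicate 3, and miR-331-3p was lowest without LETO replicate 3. Quantile normalization of the whole samples gave 1.06, 0.91 and 1.44, with groups that did not overlap.

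These values stand against shifts of the whole array that depend on the reference. Over the 162 assays measured in all samples the median difference was -0.59 with U6, -0.29 with the card median, -0.16 with that of the whole array and 0.38 with the other small RNA controls, and the 3 miRNAs lay above it under each of the 4. Within a sample each of these references shifts all card A assays by the same amount. The order of the card A assays by difference is therefore the same under all 4. Agreement between the references thus adds nothing to the choice of the 3 miRNAs as high. The whole-array reference set the 2 cards apart, with a median difference of 0.02 on card A, the card of the 3 miRNAs, and -0.90 on card B. In order of difference from the highest, miR-361, miR-218 and miR-331-3p ranked 9, 10 and 20 of 162 with the card median and 7, 8 and 18 with U6. The share of assays that lay higher in every OLETF than in every LETO sample was 4.32% (7 of 162) with the card median, 7.41% (12 of 162) with the whole-array median and 0% (0 of 162) with U6. The 3 miRNAs are in the first 2 counts because they were chosen by them. The 12 assays of the whole-array count were all on card A, which held 122 of the 162, so the share was larger among assays of that card. In the test across all assays (limma, adjusted p under 0.05), 0 of 193 (0%) were called with U6, where 2 had an unadjusted p under 0.05 and the ordinary per-assay test gave 1, and 0 of 193 (0%) with the card median, where 12 did and the ordinary test gave 11.

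The rule has a threshold at a gap of 0, and several assays lay close to it. With the card median, miR-218 at 0.02 and the rat assay of miR-28* at 0.01 were just inside, and miR-222 at -0.01 and the rat assay of miR-7a* at -0.02 just outside. With the whole-array median the rat assay of miR-28* differed by -0.32 and had a gap of -1.99, so it met the rule with the card median only. The mouse assay of miR-28* differed by -0.43 and had a gap of -1.14 with the card median. On card A, miR-155 at -0.08 and miR-16 at -0.10 followed. miR-34b-3p (a difference of 1.40), miR-365 (1.25) and miR-193b (1.07) also met the rule and differed more than the 3 miRNAs. Their gaps were 0.18, 0.42 and 0.37 with the card median and 0.63, 0.59 and 0.82 with the whole-array median.

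**Figure D3:**
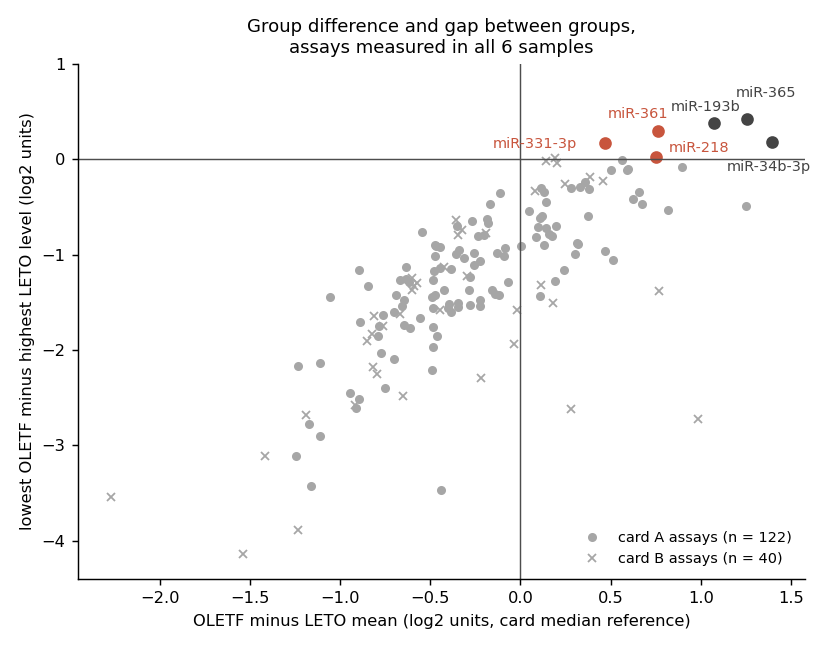
Difference of group means (x axis, log2 units) against the gap between the lowest OLETF and the highest LETO sample (y axis, log2 units) for the 162 assays measured in all samples, relative to the card median; circles are card A and crosses card B, with the 3 miRNAs in red and 3 others that met the same rule in black. Points above 0 on the y axis are assays whose groups do not overlap, and miR-218 lies almost on that line.

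Leaving out 1 sample at a time changed the sizes with the median references but not the direction. The kept direction follows from the choice of the miRNAs, whose groups were apart under these same medians. With a sample left out, groups could come to overlap only through the median, which was taken anew. With the card median the difference of miR-218 ran from 0.54 without OLETF replicate 3 to 1.05 without LETO replicate 2, and without OLETF replicate 3 the groups overlapped by 0.06. For miR-331-3p it ran from 0.30 without LETO replicate 3 to 0.69 without LETO replicate 2, and the groups stayed apart in 6 of 6 cases. miR-361 ran from 0.43 without LETO replicate 1 to 1.06 without LETO replicate 2, apart in 6 of 6. LETO replicate 1, with its well near the limit, was thus the sample on which the size for miR-361 rested most, with 0.76 over all samples. With the whole-array median the groups stayed apart in 6 of 6 cases for all 3, and the ranges were 0.75 to 1.30, 0.60 to 0.95 and 0.59 to 1.31 for the 3 miRNAs in the same order.

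With U6 the sign depended on single samples. Without LETO replicate 3 the differences were 1.53 for miR-218, 1.04 for miR-331-3p and 1.71 for miR-361, and the groups did not overlap for any of the 3. Without LETO replicate 2 they turned to -0.05, -0.40 and -0.04. Without OLETF replicate 3 they were -0.11, -0.18 and 0.07, and without LETO replicate 1 they were 0.17, 0.16 and 0.01. Replicates 1 and 2 alone gave 0.87, 0.60 and 1.22 with U6 and 0.56, 0.29 and 0.91 with the card median.

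**Figure D4:**
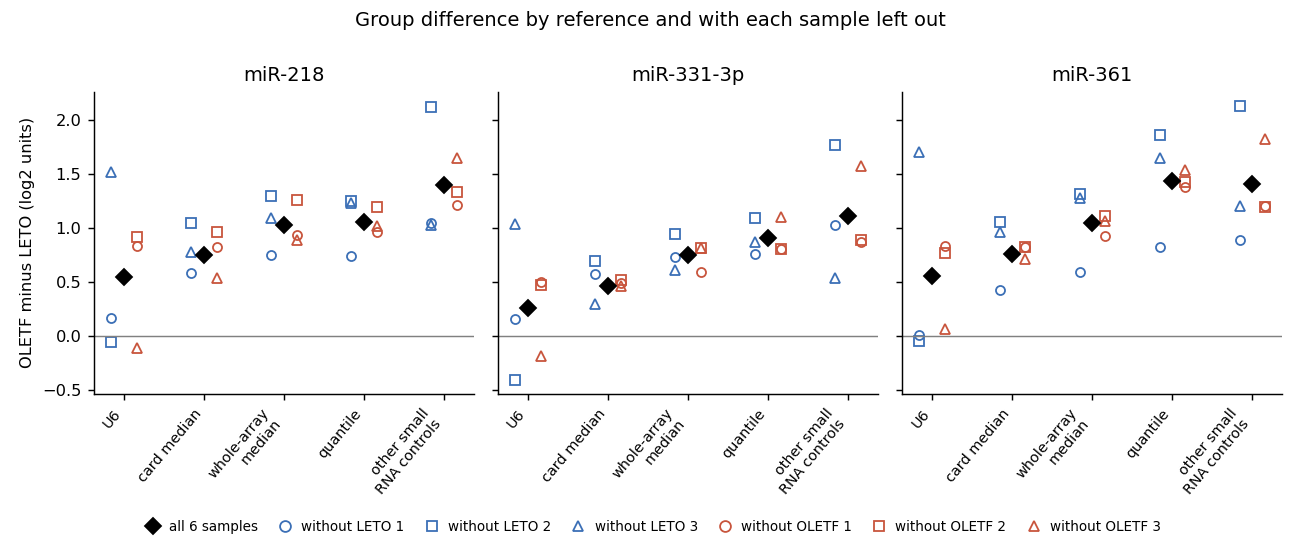
OLETF minus LETO difference (y axis, log2 units) of each miRNA under 5 references (x axis) with all 6 samples (black diamonds) and with each sample left out in turn (open symbols, blue for a LETO and red for an OLETF sample). With U6 the values run from -0.40 to 1.71 over the 3 miRNAs and cross 0, and under the other 4 references they lie above 0.

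Measures that subtract no reference value were also taken within each sample. They set each miRNA against the card A assays whose median was used to choose it, so they are not independent of that choice. The rank of the level among the 122 card A assays, with 1 the lowest Ct, was 61, 55 and 56 for miR-218 in LETO and 44, 47 and 44 in OLETF. For miR-331-3p it was 48, 42 and 46 against 35, 33 and 41, and for miR-361 it was 122, 117 and 117 against 112, 110 and 116. The ranks of the groups did not overlap, although those of miR-331-3p and miR-361 came within 1 place of each other. Because assays can amplify with different efficiency, a rank serves only to compare samples. Set against each of the other 121 card A assays in turn, the ratio of miR-218 was on average higher in OLETF for 114, that of miR-361 for 115 and that of miR-331-3p for 104. It was higher in every OLETF than in every LETO sample against 48, 39 and 30 of them, where the median card A assay reached 2. These ranks and counts come from the contrast that chose the miRNAs and describe it with the other card A assays as the comparison.

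Among themselves, miR-218 and miR-361 kept the closest ratio between the groups. The level of miR-218 minus that of miR-361 was 4.94, 4.60 and 4.26 log2 units in LETO and 4.56, 4.28 and 4.92 in OLETF, with means of 4.60 ± 0.34 and 4.59 ± 0.32 (SD, n = 3 each). miR-218 minus miR-331-3p stood at -0.98 ± 0.49 in LETO and -0.70 ± 0.38 in OLETF, and miR-331-3p minus miR-361 at 5.58 ± 0.82 and 5.29 ± 0.09. None of the 3 ratios separated the groups. The ratio of miR-331-3p to miR-361 varied in LETO, from 4.84 to 6.46, and hardly in OLETF, from 5.20 to 5.37.

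The 2 arms of the miR-331 hairpin differed in pattern. miR-331-5p, the other arm, had a Ct of 34.1, 33.3 and 31.3 in LETO; in OLETF it was undetermined in replicate 1 and 34.7 and 32.96 in replicates 2 and 3. Its Ct exceeded that of miR-331-3p in the same sample by 5.62, 5.42 and 5.89 cycles in LETO (5.64 ± 0.23, SD, n = 3) and by 7.52 and 6.84 in OLETF replicates 2 and 3. In OLETF replicate 1 the difference would be 8.11 cycles with the undetermined well set to the limit of 35. That is no firm bound, since an undetermined well can have a repeat under 35. The assay of miR-218-2* did so in OLETF replicate 2, with 34.4 in 1 well and no value in the other. The ratio of the 3′ to the 5′ arm was thus higher than in any LETO sample in the 2 OLETF samples with both arms measured, with no reference involved. The nearest were LETO replicate 3 at 5.89 and OLETF replicate 3 at 6.84. Both assays were single wells, miR-331-5p lay near the limit in most samples, and miR-331-3p, 1 side of the ratio, was chosen for being higher in OLETF, so no test is given. Relative to the card median miR-331-5p differed by -1.14, over 3 LETO and 2 OLETF samples.

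The star strands of miR-218 were hardly detected. Of 12 wells of miR-218-1*, 2 were determined, both in LETO and both above the limit of 35. Of 12 wells of miR-218-2*, 5 were determined at 34.4 to 36.7, in LETO replicate 3 and in all OLETF samples, and the mean was under 35 in OLETF replicate 2 alone. No difference is given for either, and neither tells which of the Slit2 and Slit3 loci the mature miR-218 came from.

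Over the 6 samples, the assays whose level followed miR-218 most closely, relative to the card median, were miR-15b (Pearson r = 0.88), miR-361 (0.87) and let-7f (0.79). Those closest to miR-361 were miR-218 (0.87), miR-15b (0.82) and the mouse assay of miR-7a* (0.72). miR-331-3p was followed most closely by miR-16 (0.97), miR-155 (0.96) and miR-193b (0.94), and its own r was 0.61 with miR-218 and 0.42 with miR-361. With the whole-array median these last values were 0.83 and 0.74. Each r is taken over 6 samples, out of 161 assays, and describes these samples only. The values share the wells' RNA input and, on card A, the subtracted median, and the group difference itself enters them. miR-15b, of the miR-15/16 family, differed by 0.36, and its groups overlapped (-2.08, -1.70 and -1.45 in LETO, -1.38, -1.69 and -1.08 in OLETF).

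Several but not all markers of blood cells had a higher mean in OLETF, with groups that overlapped for each of them. On the red cell list 2 of 3 assays were measured in all samples and both lay higher relative to the card median, miR-16 by 0.60 and miR-486 by 0.47. The summed level of that list was 6.19 to 7.49 (log2) in LETO and 7.28 to 7.78 in OLETF, while miR-451, the defining red cell miRNA, was measured in 1 LETO sample and in no OLETF sample; miR-486 is also on the muscle list. Of the leukocyte list 5 of 6 were measured in all samples and 4 lay higher relative to the card median. These were miR-155 by 0.90, miR-146a by 0.33, miR-150 by 0.19 and miR-223 by 0.09, while miR-142-3p differed by -0.49. The summed level of the leukocyte list was 6.61 to 8.45 in LETO and 7.61 to 8.25 in OLETF. Both ranges overlapped between the groups. Of all 162 assays 55 lay higher with the card median. With U6 2 of the 5 leukocyte assays lay higher (median -0.01), against 29 of the 162 (median -0.59). The part of blood cells in the levels of the 3 miRNAs was not tested.

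Neural and vessel miRNAs, the settings in which miR-218 is best known, lay partly higher and partly lower. Of the neural list miR-124 and miR-219 were measured in no sample, and of the 2 assays measured in all samples miR-9 differed by -0.94 and miR-138 by 0.31 relative to the card median, with a summed level of -0.52 to 0.28 in LETO and -0.82 to 0.27 in OLETF. Of the vessel wall list 3 of 6 assays measured in all samples lay higher, with a median of -0.07 against -0.29 for all 162 assays. With U6 1 of 6 did, with a median of -0.28 against -0.59. Of all 162 assays 55 lay higher with the card median and 29 with U6. With the whole-array median 3 of 6 lay higher, against 66 of the 162. Their median was 0.21, against -0.16 for all assays and 0.02 for those of card A, which holds the whole vessel wall list. Endothelial miR-126-3p stood at 9.07 ± 0.49 (LETO) and 9.21 ± 0.34 (OLETF, SD, n = 3 each), a difference of 0.14. The other arm of its hairpin, miR-126-5p, went the opposite way and differed by -0.56. Smooth muscle miR-145 differed by -0.64, miR-143 by -0.29 and miR-92a by 0.14. miR-222, which targets the cell cycle inhibitor p27, differed by 0.56, with groups that overlapped by 0.01; with the whole-array median it differed by 0.84 and its groups were 0.06 apart. The summed level of the vessel wall list was 8.98 to 9.68 in LETO and 8.99 to 9.59 in OLETF. Of the liver and epithelium list, miR-122 and miR-375 were measured in no sample and 3 of the 4 measured in all samples lay higher, miR-203 by 0.66. The summed level was 0.26 to 0.76 in LETO and 0.79 to 0.82 in OLETF, so the summed levels lay just apart, while no single member had groups that did not overlap. With U6 the summed levels overlapped, at -11.31 to -8.35 in LETO and -10.49 to -8.94 in OLETF. The part of these cells in the result was not tested.

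A place inside a protein-coding gene is shared by all 3 miRNAs but is common. Of the 155 assays measured in all samples that matched the RefSeq gene table, 74 (47.7%) had every copy inside the span of a protein-coding gene. Relative to the card median, 24 of these 74 lay higher and 50 lower, with a median of -0.27 against -0.32 for all 155, and 5 (6.76%) had groups that did not overlap with OLETF higher, against 7 (4.52%) of the 155. These 5 were miR-365, the rat miR-28* assay and the 3 miRNAs, which were chosen for not overlapping, so nothing is read from the count. A list of other miRNAs known from introns or exons of protein-coding genes had 24 of 37 assays measured in all samples. Of these, 4 lay higher and 20 lower with the card median (median -0.27), while with the whole-array median 13 lay higher and with U6 1. In the same order, 55, 66 and 29 of all 162 assays lay higher. Its highest members were miR-15b (0.36), miR-126-3p of Egfl7 (0.14), miR-186 (0.13) and miR-342-3p (0.11), and its lowest were miR-499 of Myh7b (-0.90) and miR-103 of the Pank genes (-0.76). On the X chromosome, which carries Mir361, 7 of 14 assays lay higher and 7 lower with the card median, against 52 higher and 103 lower of all 155. Groups did not overlap, with OLETF higher, for 1 of the 14 (7.14%) with the card median, against 7 (4.52%) of the 155. That 1 was miR-361, which was chosen for it. With the whole-array median it was 3 of the 14, miR-361, miR-222 and miR-532-3p, against 12 of the 155. So few assays allow no reading of the chromosome.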

How the data were processed

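Left ventricles of 3 LETO and 3 OLETF rats were measured on TaqMan rodent miRNA cards after reverse transcription with a stem-loop primer pool, with U6 snRNA as endogenous control, per the labels and the series' design text. The deposited tables hold the Ct of each well, delta Ct against U6 (log2 units, where higher means less RNA) and, by the authors, each well's ratio (fold) between OLETF and LETO. For the 3 miRNAs the deposited delta Ct and that recomputed from Ct differed by at most 2e-06. Baseline and threshold settings are not given in the sources used here.

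Each block of 384 wells was taken as a card. An assay's determined wells were averaged, a mean Ct of 35 or more counted as not measured, and levels were set against U6 of the same card (the main reference), the median of assays measured in all 6 samples per card or over the array, the other small RNA controls of the card, or quantiles. Assays measured in at least 2 of 3 samples per group were fitted with limma 3.58.1 (lmFit, eBayes) in R 4.3.3, with Benjamini-Hochberg adjustment; the script was tested on simulated data. Summed levels of a list are log2 of the sum of linear levels. The named miRNAs are the 3 members, other arms of their hairpins, the 3 closest assays by Pearson r, the 3 others known to meet the rule, the controls, cell markers, and list members with the highest level or largest difference. Members and lists were chosen with earlier results of these data known. With 3 samples a group the number of samples limits precision.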

Additional observations from a re-analysis of the deposited data

How the results depend on the processing

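With the card median, miR-331-3p moved from 0.47 to 0.70 with a Ct limit of 32, which leaves fewer assays under the median, and lay between 0.30 and 0.69 when any 1 sample was left out; miR-218 and miR-361 ran from 0.54 to 1.05 and from 0.43 to 1.06. At a limit of 32 miR-361 was measured in 1 sample of each group and gave no value. With U6 and 1 sample left out, miR-218 ran from -0.11 to 1.53, miR-331-3p from -0.40 to 1.04 and miR-361 from -0.040 to 1.71; the values below 0 came without LETO replicate 2 (-0.05, -0.40 and -0.040) or OLETF replicate 3 (-0.11 and -0.18). Other references, the deposited table and Ct limits kept all 3 above 0. The whole-array and other-control references with 1 sample left out were added after seeing the data.

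The number of assays higher in every OLETF sample, 7 with the card median, was 12 with the whole-array median, 0 with U6, 16 with a Ct limit of 38, 13 without a limit, 17 within replicates 1 and 2, and 13 to 16 with 1 sample left out, where fewer samples must be apart. The count at adjusted p under 0.05 (limma) was 0 in each alternative but one: with U6 and the replicate block it was 1, miR-466d-3p. The block left the differences of the 3 miRNAs as they were (0.55, 0.27 and 0.56 with U6; 0.75, 0.47 and 0.76 with the card median). Same-numbered samples of the groups correlated unevenly in their deviations (r = -0.09, 0.23 and 0.62), and the numbers were not taken as pairs. Not every sample correlated best with its own number. Replicates 1, 2 and 3 of LETO carry the sample names LETO2, LETO3 and LETO4, and those of OLETF the names OLETF1, OLETF2 and OLETF3. By these names, LETO2 with OLETF2 gave r = 0.03 and LETO3 with OLETF3 gave -0.71.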
